A study of Rattus norvegicus with 24 samples.

Results

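The BMP ligand genes Bmp4 and Bmp7, the inhibitory Smad genes Smad6 and Smad7 and the inhibitor of DNA binding genes Id1, Id2, Id3 and Id4 were described across rat neural stem cells and the cells made from them. These 8 genes were matched by symbol. They and the other gene lists below were chosen with earlier results of these data known. All 8 were among the 12187 genes of the deposited expression table, and all 8 were among the 11823 genes that passed a filter of at least 1 CPM (reads per gene, scaled per library by the authors) in at least 2 libraries. The groups were VC+, cells differentiated from neural stem cells with vitamin C; VC-, cells differentiated without vitamin C; and D0, the neural stem cells themselves, all from Sprague-Dawley rats. Each group had 2 RNA-seq libraries. In VC+ and VC- the library of replicate 1 carried a D4 label and that of replicate 2 a D5 label, so day and replicate cannot be told apart there. The labels do not tell whether replicates are independent cultures or litters, and a p-value below therefore covers only the scatter among these 6 libraries, which may be technical.

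Bone morphogenetic proteins are secreted ligands that bind pairs of type I and type II serine/threonine kinase receptors. The activated type I receptor phosphorylates Smad1, Smad5 and Smad9, which enter the nucleus with Smad4 and switch on target genes, among them the Id genes and the genes of the inhibitory Smads, which in turn dampen the pathway. Id proteins hold a helix-loop-helix domain without a DNA-binding region and sequester E proteins away from proneural and oligodendroglial partners. In neural stem cells of rodents, BMP signalling is known to favour astrocytes over neurons and oligodendrocytes. Vitamin C keeps the iron of dioxygenases active, and the comparison of VC+ with VC- asks how its presence during differentiation bears on expression.

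The promoters of the target-side genes are shown because Smad proteins can bind in promoters, though they can also bind elsewhere. RefSeq promoter sequences of build GRCr8 matched 6 of the 8 genes; Bmp7 and Smad6 have none shown. The window of 300 bases runs 5′ to 3′ on the gene's strand, from 250 before to 50 after the annotated start. Capitals mark GGCGCC, a palindromic site bound by BMP-activated Smads, GTCT on either strand (AGAC as printed where it lies on the opposite strand), the core bound by Smad4, and TATAAA, the TATA box. None of these motifs overlapped another in the sequences shown. The 5 sequences are from Id1 at chr3:161671314-161671613 on the plus strand, Id2 at chr6:47470946-47471245 on the minus strand, Id3 at chr5:153656041-153656340 on the plus strand, Id4 at chr17:16598244-16598543 on the minus strand, and Smad7 at chr18:71263258-71263557 on the plus strand.
Id1: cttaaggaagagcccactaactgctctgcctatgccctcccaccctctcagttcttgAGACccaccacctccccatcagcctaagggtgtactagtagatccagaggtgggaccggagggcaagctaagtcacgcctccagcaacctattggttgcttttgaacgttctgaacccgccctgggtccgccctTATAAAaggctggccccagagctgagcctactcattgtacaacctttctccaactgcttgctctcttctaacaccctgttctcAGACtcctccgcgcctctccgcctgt
Id2: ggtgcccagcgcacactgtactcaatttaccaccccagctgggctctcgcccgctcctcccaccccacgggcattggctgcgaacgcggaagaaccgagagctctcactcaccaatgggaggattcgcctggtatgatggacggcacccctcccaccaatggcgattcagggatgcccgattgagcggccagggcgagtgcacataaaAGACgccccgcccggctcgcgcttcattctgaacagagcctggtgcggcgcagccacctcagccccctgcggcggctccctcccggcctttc
Id3: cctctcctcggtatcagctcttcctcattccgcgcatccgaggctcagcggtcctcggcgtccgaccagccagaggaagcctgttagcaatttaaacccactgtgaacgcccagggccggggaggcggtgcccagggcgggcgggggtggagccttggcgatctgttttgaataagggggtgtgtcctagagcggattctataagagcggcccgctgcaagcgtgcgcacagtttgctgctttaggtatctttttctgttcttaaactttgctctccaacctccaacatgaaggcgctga
Id4: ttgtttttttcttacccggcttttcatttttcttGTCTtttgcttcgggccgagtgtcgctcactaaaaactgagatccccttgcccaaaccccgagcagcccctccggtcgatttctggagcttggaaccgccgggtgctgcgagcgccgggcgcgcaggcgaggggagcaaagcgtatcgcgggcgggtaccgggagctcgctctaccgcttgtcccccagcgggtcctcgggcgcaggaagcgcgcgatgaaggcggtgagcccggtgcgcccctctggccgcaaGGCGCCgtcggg
Smad7: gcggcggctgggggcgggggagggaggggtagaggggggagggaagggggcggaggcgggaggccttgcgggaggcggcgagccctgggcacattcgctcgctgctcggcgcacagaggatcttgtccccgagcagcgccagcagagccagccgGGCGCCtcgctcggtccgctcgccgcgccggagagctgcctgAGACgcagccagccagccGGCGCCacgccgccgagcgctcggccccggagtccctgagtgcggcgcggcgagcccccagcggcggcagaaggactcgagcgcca

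GGCGCC occurred 2 times in the Smad7 window, at -96 and -36 from the start, and 1 time in Id4, at 39 after the annotated start. GGCGCC was found in 11.0% of 33469 RefSeq promoters of the same length. From its annotated start the Id4 sequence opens with ATG, so that start may be the start of the coding part. The bases before it may then not be the promoter. GTCT occurred in the windows of Id1, Id2, Id4 and Smad7 and in 88.8% of all promoters, so a single match is common. The Bmp4 window, not printed because Bmp4 is a ligand gene here, held GTCT at 3 positions and neither of the other motifs. TATAAA stood at -59 in Id1 and in 14.2% of all promoters. The Id3 window held none of the 3 motifs. A match is a description of these letters and not a measured binding site. Bases outside the window were not searched, so a missing motif does not tell whether Smads bind elsewhere at the gene. The transcribed spans of Id1 and Bmp4 each overlap a long non-coding RNA locus in GRCr8; whether reads were counted by strand is not given in the sources used here, so some reads of these 2 genes may come from that neighbour.

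The replicate sets differed in depth and in content. Reads over the listed genes ranged from 4811094 to 6641721 in the replicate 1 libraries and from 10299321 to 13184601 in the replicate 2 libraries, and a count of 0 allows up to 0.140 to 0.378 CPM (3 reads). The summed CPM of 12 microglia and macrophage markers was 280 to 737 in replicate 2 and 4.53 to 4.69 in replicate 1, where 4 to 8 of the 12 were at 0, against none at 0 in replicate 2. For 10 listed markers of fibroblasts, pericytes and meninges the sums were 4025 to 10356 in replicate 2 and 360 to 387 in replicate 1. Sums for 12 astrocyte markers were 9828 and 15649 CPM in VC+, 3322 and 9117 in VC-, and 2122 and 5550 in D0. Sums for 12 oligodendrocyte lineage markers were 8949 and 883 CPM in VC+, 11675 and 1107 in VC-, and 968 and 527 in D0. The 8 listed stem and progenitor markers summed to 3222 to 5399 CPM over the 6 libraries. Of these Sox2 and Nes, chosen after their values were seen, were present in D0, at 363 and 337 CPM and at 159 and 116 CPM. Sox2 does not set D0 apart, with 455 and 332 CPM in VC+ and 452 and 343 CPM in VC-. Nes was lower in the differentiated cells, with 35.3 and 32.5 CPM in VC+ and 81.6 and 53.5 CPM in VC-. These are bulk samples, in which fewer cells of a type and less RNA per cell cannot be told apart. Levels below are given for replicate 1 and then replicate 2, and differences are log2 values on the log2(CPM + 0.5) scale with their standard error (SE) in limma. That fit has no term for the replicate, so its SE also holds the difference between the replicate sets. Within-replicate ratios carry exact 95% intervals, which cover counting error only, since PCR copies are not independent molecules.

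**Figure D1:**
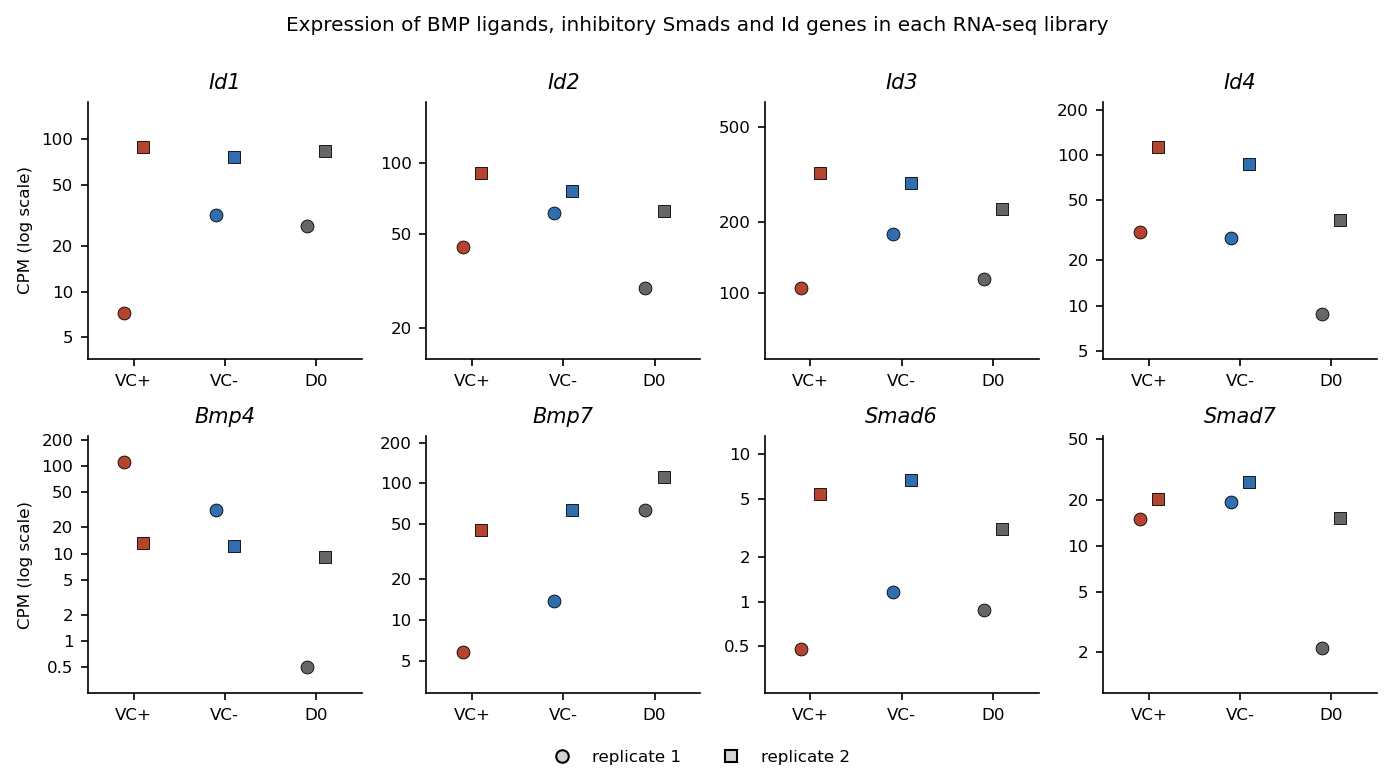
CPM (log scale, a separate range for each gene) of the 8 genes in the 2 libraries of VC+, VC- and D0; circles are replicate 1 and squares replicate 2. Replicate 2 lies above replicate 1 in every group for 7 genes; Bmp4 is the exception, with its highest value of 111 CPM in VC+ replicate 1.

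Bmp4 encodes a ligand that drives neural stem cells of rodents toward astrocytes. Its level was 111 and 13.3 CPM in VC+, 31.2 and 12.1 CPM in VC-, and 0.504 and 9.13 CPM in D0. Both differentiated groups lay above both stem cell libraries, while VC+ and VC- overlapped, and the D0 replicate 1 value rests on 4 reads. Within replicate 1 the CPM ratio of VC+ to VC- was 3.56 (95% interval 3.12 to 4.08), and within replicate 2 it was 1.10 (0.920 to 1.32), an interval that includes no difference. Relative to D0 the replicate 1 ratios were 220 (85.7 to 809) for VC+ and 61.8 (23.8 to 228) for VC-. In replicate 2 they were 1.46 (1.18 to 1.80) for VC+ and 1.32 (1.07 to 1.65) for VC-. Relative to D0 the same direction was thus seen in both replicates, with sizes that lay far apart. The fitted difference was 0.97 (SE 1.48) for VC+ against VC-, 2.68 (SE 1.48) for VC- against D0 and 3.66 (SE 1.48) for VC+ against D0, and none passed the test (limma, adjusted p = 1.000 in each). The astrocyte marker sum followed the same order of groups as Bmp4 within each replicate. Single genes weigh heavily in this sum, with Apoe at 4491 of 9117 CPM in VC- replicate 2. Of the 12 markers, 9 were higher and 0 lower in both replicates for VC+ against VC- (30.0% and 26.4% of all genes). For VC- against D0, 4 were higher and 3 lower (28.6% and 29.5%). From replicate 1 to 2 the astrocyte sum rose in VC+ (9828 to 15649 CPM) and VC- (3322 to 9117), where Bmp4 fell. In D0 both rose (astrocyte sum 2122 to 5550). The oligodendrocyte lineage sum was also lowest in D0 within each replicate. It fell from replicate 1 to 2 in VC+ (8949 to 883), VC- (11675 to 1107) and D0 (968 to 527). The part of cell makeup in the Bmp4 values was not tested.

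Bmp7 encodes another ligand of the family, which can pair with Bmp4 in heterodimers. It stood at 5.74 and 45.8 CPM in VC+, 13.6 and 63.4 CPM in VC-, and 63.4 and 112 CPM in D0. Bmp7 was thus lowest with vitamin C and highest in stem cells within each replicate; the highest VC- value and the lowest D0 value both round to 63.4, so these groups only just fail to overlap. The ratio of VC+ to VC- was 0.422 (0.304 to 0.581) in replicate 1 and 0.722 (0.663 to 0.787) in replicate 2. Set against D0, the VC+ ratios were 0.0905 (0.0681 to 0.118) in replicate 1 and 0.408 (0.377 to 0.442) in replicate 2. The VC- ratios were 0.214 (0.174 to 0.263) in replicate 1 and 0.565 (0.524 to 0.609) in replicate 2. All 6 intervals lie below 1. Fitted over the groups, the differences were -0.82 (SE 1.18) for VC+ against VC-, -1.50 (SE 1.18) for VC- against D0 and -2.32 (SE 1.18) for VC+ against D0, none past the threshold (limma, adjusted p = 1.000 in each). Bmp4 and Bmp7 therefore lay in opposite directions relative to D0 in both replicates.

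Of the 17 other BMP and GDF ligands listed, 8 were in the table and 7 were tested, and limma called none in any of the 3 comparisons. Their median difference was -0.017 for VC+ against VC-, -0.076 for VC- against D0 and -0.16 for VC+ against D0. Bmp6, a ligand known for its control of hepcidin in liver, had 1.34 and 83.3 CPM in VC+, 2.67 and 99.0 CPM in VC-, and 0.631 and 6.90 CPM in D0. Its replicate 2 values were far above those of replicate 1 in each group. Gdf11, a relative of myostatin that signals mainly through Smad2 and Smad3, had 54.5 and 39.1 CPM in VC+, 56.7 and 54.1 CPM in VC-, and 35.6 and 95.7 CPM in D0, so the stem cell libraries spanned both differentiated groups. Bmp3, chosen after its values were seen, had 4.21 and 1.55 CPM in VC+, 10.1 and 1.77 CPM in VC-, and 24.8 and 11.2 CPM in D0. Like Bmp7 it was highest in D0 within both replicates (VC+ against D0 -2.47, SE 0.94; VC- against D0 -1.81, SE 0.94; limma, adjusted p = 1.000 in both).

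Secreted antagonists and modulators bind ligands outside the cell or release them. Of 20 listed, 15 were in the table and 14 were tested; limma called none. For VC+ against VC-, 3 were higher and 3 lower in both replicates, with a median of -0.03. Fstl1, a follistatin-like glycoprotein, had 55.1 and 252 CPM in VC+, 51.3 and 415 CPM in VC-, and 97.6 and 771 CPM in D0, and was highest in D0 in each replicate. Bmp1, a protease that cleaves chordin and procollagens and no ligand despite its name, had 318 and 243 CPM in VC+, 241 and 260 CPM in VC-, and 313 and 452 CPM in D0. Noggin (Nog), a direct BMP antagonist chosen after its values were seen, had 17.6 and 26.5 CPM in VC+, 14.1 and 33.6 CPM in VC-, and 3.78 and 18.7 CPM in D0. Its difference was 1.29 (SE 0.84) for VC+ against D0 and 1.30 (SE 0.84) for VC- against D0, higher in both replicates each time but with overlapping groups and an adjusted p of 1.000 in limma. Bmper, another extracellular modulator also chosen after its values were seen, had 54.3 and 3.18 CPM in VC+, 13.7 and 2.10 CPM in VC-, and 1.51 and 3.94 CPM in D0. As with Bmp4, its highest value was in VC+ replicate 1, and VC+ lay above VC- within both replicates.

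Receptors and co-receptors numbered 13 in the list, with 10 in the table and 10 tested. None was called by limma, and the medians were 0.11 for VC+ against VC-, -0.24 for VC- against D0 and -0.32 for VC+ against D0. Bmpr1a, a type I receptor, had 95.0 and 158 CPM in VC+, 81.5 and 119 CPM in VC-, and 68.6 and 151 CPM in D0, with overlapping groups. Rgma, a membrane-anchored co-receptor, had 603 and 413 CPM in VC+, 481 and 431 CPM in VC-, and 212 and 686 CPM in D0, also with overlap. Bmpr1b, another BMP type I receptor, was chosen after its values were seen and had 39.1 and 11.1 CPM in VC+, 9.07 and 5.64 CPM in VC-, and 5.17 and 1.18 CPM in D0. It was the only receptor of the 10 whose VC+ libraries both lay above both VC- libraries, a pattern found for 8.15% of all genes tested. The difference was 1.48 (SE 0.88) for VC+ against VC- and 2.80 (SE 0.88) for VC+ against D0, with an adjusted p of 1.000 in limma for both. The Smads that carry the signal were all in the table. Smad5 had 57.9 and 49.8 CPM in VC+, 46.9 and 44.6 CPM in VC-, and 65.3 and 50.2 CPM in D0. Smad4, the shared partner, had 85.5 and 64.4 CPM in VC+, 78.8 and 70.1 CPM in VC-, and 75.4 and 64.3 CPM in D0. Smad4 and Smad5 thus spanned narrow ranges beside those of the ligands, and limma called none of the 4 signalling Smads.

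Smad6 inhibits BMP type I receptors and competes with Smad4 for Smad1. It had 0.478 and 5.38 CPM in VC+, 1.16 and 6.66 CPM in VC-, and 0.883 and 3.09 CPM in D0. The replicate 1 values rest on 5 reads in VC+, 10 in VC- and 7 in D0, so a difference there was not detectable at this depth: the VC+ to VC- ratio was 0.411 (0.110 to 1.32). In replicate 2 that ratio was 0.808 (0.622 to 1.05), which also includes no difference. Relative to D0 the replicate 2 ratios were 1.74 (1.23 to 2.50) for VC+ and 2.16 (1.53 to 3.09) for VC-, both above 1, while in replicate 1 they were 0.542 (0.136 to 1.98) for VC+ and 1.32 (0.453 to 4.08) for VC-. The fitted difference was -0.52 (SE 1.24) for VC+ against VC-, 0.63 (SE 1.24) for VC- against D0 and 0.11 (SE 1.24) for VC+ against D0 (limma, adjusted p = 1.000 in each). All 3 replicate 2 libraries lay above all 3 replicate 1 libraries, so the groups overlapped.

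Smad7 blocks both BMP and TGF beta type I receptors and recruits ubiquitin ligases to them. It had 14.9 and 20.2 CPM in VC+, 19.3 and 26.4 CPM in VC-, and 2.14 and 15.3 CPM in D0. VC- lay above D0 without overlap, VC+ overlapped D0 by a narrow margin, and D0 replicate 1 stood apart with 17 reads. The VC+ to VC- ratio was 0.773 (0.618 to 0.968) in replicate 1 and 0.765 (0.671 to 0.872) in replicate 2, the closest agreement in size between replicates among the 8 genes for this comparison. Against D0 the VC- ratio was 9.00 (5.45 to 15.8) in replicate 1 and 1.72 (1.47 to 2.02) in replicate 2, and the VC+ ratio was 6.96 (4.21 to 12.3) in replicate 1 and 1.32 (1.12 to 1.55) in replicate 2. The fit gave -0.37 (SE 0.88) for VC+ against VC-, 1.84 (SE 0.88) for VC- against D0 and 1.47 (SE 0.88) for VC+ against D0, none past the threshold (limma, adjusted p = 1.000 in each). Of 11 other intracellular and membrane attenuators, 9 were in the table and tested, with none called by limma. Nedd4l, a ubiquitin ligase of Smads and receptors, had 35.4 and 71.1 CPM in VC+, 36.9 and 58.0 CPM in VC-, and 89.0 and 115 CPM in D0, opposite in direction to Smad7 relative to D0 in both replicates. Fkbp1a, which holds type I receptors inactive, had 118 and 108 CPM in VC+, 135 and 107 CPM in VC-, and 147 and 124 CPM in D0.

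Id1 is the Id gene most often used as a direct BMP readout. It had 7.18 and 88.5 CPM in VC+, 31.9 and 76.5 CPM in VC-, and 27.0 and 83.2 CPM in D0. The VC+ replicate 1 library was the low one, with 75 reads, and the 3 replicate 2 libraries lay close together. The ratio of VC+ to VC- was 0.225 (0.172 to 0.292) in replicate 1 and 1.16 (1.08 to 1.24) in replicate 2, so the replicates had opposite directions, each beyond counting error. The library with the lowest Id1 was the one with the highest Bmp4 of the 6. Fitted differences were -0.93 (SE 1.29) for VC+ against VC-, 0.057 (SE 1.29) for VC- against D0 and -0.88 (SE 1.29) for VC+ against D0 (limma, adjusted p = 1.000 in each).

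Id2 and Id3, which in rodents restrain differentiation of several lineages, had the same split between replicates in smaller size. Id2 had 44.0 and 90.8 CPM in VC+, 61.0 and 76.1 CPM in VC-, and 29.4 and 62.7 CPM in D0, with VC+ to VC- ratios of 0.721 (0.635 to 0.819) in replicate 1 and 1.19 (1.11 to 1.28) in replicate 2. Id3 had 105 and 321 CPM in VC+, 178 and 290 CPM in VC-, and 115 and 226 CPM in D0, with ratios of 0.593 (0.548 to 0.641) in replicate 1 and 1.11 (1.07 to 1.15) in replicate 2. For Id1, Id2 and Id3 alike, VC+ was below VC- in replicate 1 and above it in replicate 2; 42.1% of all genes tested had opposite directions in the 2 replicates of this comparison. The fitted VC+ against VC- differences were -0.11 (SE 0.51) for Id2 and -0.30 (SE 0.66) for Id3. Against D0, Id2 was higher in both replicates, by 0.55 (SE 0.51) in VC+ and 0.66 (SE 0.51) in VC-. Id3 differed from D0 by 0.19 (SE 0.66) in VC+, with opposite directions in the 2 replicates, and by 0.49 (SE 0.66) in VC-, higher in both. None of these passed (limma, adjusted p = 1.000 in each).

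Id4, which in rodent neural progenitors is tied to the timing of oligodendrocyte differentiation, had 30.8 and 113 CPM in VC+, 28.1 and 86.9 CPM in VC-, and 8.83 and 37.2 CPM in D0. Both differentiated groups lay above D0 within each replicate, while the groups overlapped because replicate 2 of D0 exceeded replicate 1 of the others. The ratio to D0 was 3.49 (2.69 to 4.59) and 3.03 (2.76 to 3.32) for VC+ in replicates 1 and 2, and 3.19 (2.43 to 4.22) and 2.34 (2.12 to 2.58) for VC-. For VC+ over VC- it was 1.10 (0.924 to 1.30) in replicate 1, which includes no difference, and 1.29 (1.21 to 1.38) in replicate 2. The fit gave 0.25 (SE 1.02) for VC+ against VC-, 1.42 (SE 1.02) for VC- against D0 and 1.67 (SE 1.02) for VC+ against D0, none past the threshold (limma, adjusted p = 1.000 in each).

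**Figure D2:**
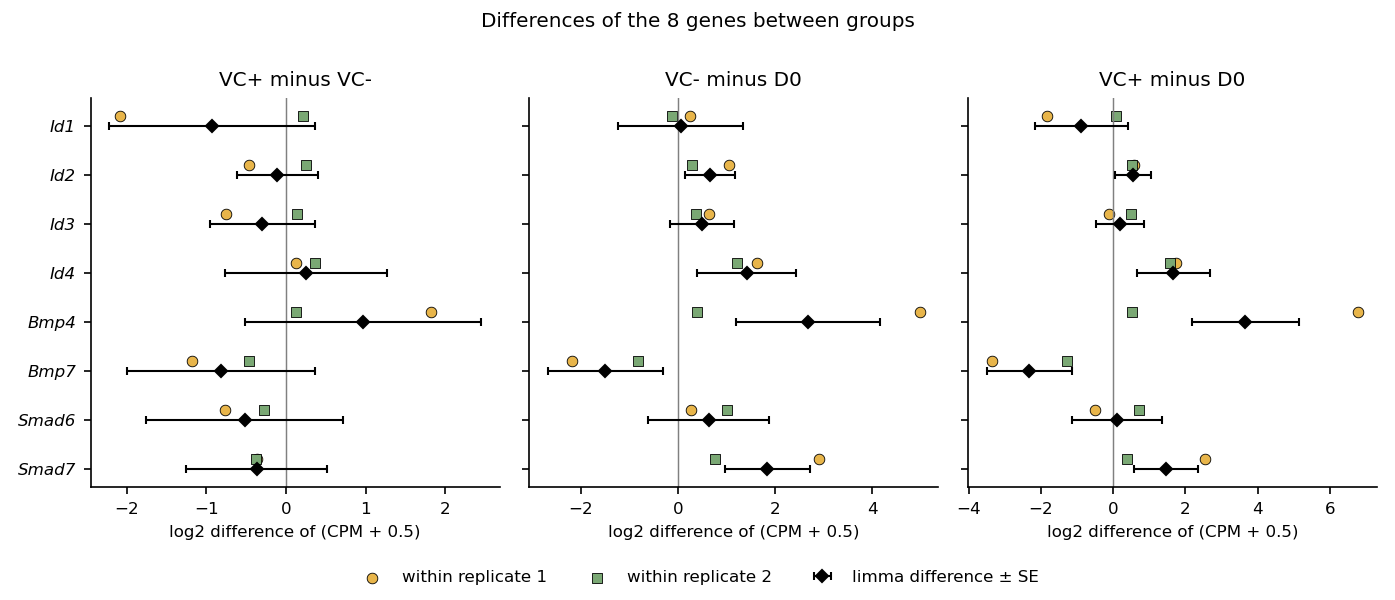
Log2 differences of the 8 genes for VC+ against VC-, VC- against D0 and VC+ against D0, with the difference within each replicate and the fitted value with its standard error. Id1, Id2 and Id3 have replicates on opposite sides of 0 for VC+ against VC-, and Bmp4 and Bmp7 lie on opposite sides of 0 against D0.

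The 8 genes were also counted as a list beside all genes tested. For VC+ against VC-, 2 genes (Id4, Bmp4) were higher in both replicates and 3 (Bmp7, Smad6, Smad7) lower in both, where 30.0% of all genes tested were higher and 26.4% lower in both; the other 3 (Id1, Id2, Id3) had opposite directions, against 42.1%. None of the 8 had groups that did not overlap, where 8.15% of all genes were higher and 7.82% lower without overlap, and the median was -0.34 against 0.018 for all genes. For VC- against D0, 6 were higher and 1 (Bmp7) lower in both replicates, against 28.6% and 29.5% of all genes, and 1 (Id1) had opposite directions, against 40.4%. Without overlap, 2 (Bmp4, Smad7) were higher and 1 (Bmp7) lower, where the background was 13.8% higher and 13.2% lower, and the median was 0.65 against 0.0078. For VC+ against D0, 4 were higher and 1 lower in both replicates, against 28.6% and 29.0%, and 3 (Id1, Id3, Smad6) had opposite directions, against 41.0%. In the same comparison 1 (Bmp4) was higher and 1 (Bmp7) lower without overlap, against 14.2% and 13.2%. The median there was 0.37 against 0.013. The 3 comparisons share libraries and are not independent of each other.

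Limma called 0% of the 11823 genes in each of the 3 comparisons, so the absence of calls among the 8 is the same as the background. At an unadjusted p under 0.05, limma without a replicate term counted 62 genes (0.524%) for VC+ against VC-, 382 (3.23%) for VC- against D0 and 507 (4.29%) for VC+ against D0. None of the 8 was among them. The smallest unadjusted p of the 8 in that fit was 0.0559, for Bmp4 in VC+ against D0. On reads recovered from the CPM values, edgeR's quasi-likelihood test also called 0 genes (66, 384 and 505 at an unadjusted p under 0.05, in the same order of comparisons), and DESeq2 called 6 (0.0492%), 63 (0.549%) and 133 (1.09%), none of them among the 8. With the replicate as a term, which pairs VC+ and VC- libraries of the same day label, DESeq2 called 32 genes (0.263%) for VC+ against VC-, again none of the 8, and limma 0 (404 at an unadjusted p under 0.05). For that comparison the limma SE with this term was 0.58 for Id1, 0.24 for Id2, 0.26 for Id3, 0.18 for Id4 and 0.50 for Bmp7. For Bmp4 it stayed at 1.48. Libraries of D0 share only the replicate number with the others. Against D0, DESeq2 and limma with this term differed in their calls for Id4 and Bmp7, and both results are given under the dependence on processing.

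The difference between replicate sets, a comparison added after the data were seen, exceeded every fitted difference between groups for 5 of the 8 genes (Id1, Id2, Id3, Id4 and Smad6). In a limma fit with the group and the replicate as terms, 6 of the 8 rose in replicate 2 against replicate 1 and 0 fell, where 17.4% of all genes rose and 7.70% fell. The log2 difference of Id1 was 3.54 in VC+, 1.25 in VC- and 1.61 in D0, and the fitted term was 2.13 (SE 0.47, limma adjusted p = 0.0345). The terms of the other Id genes were 0.81 (SE 0.20, adjusted p = 0.0436) for Id2, 1.09 (SE 0.21, 0.0250) for Id3 and 1.83 (SE 0.15, 0.00408) for Id4 in limma. Bmp7 (1.96, SE 0.41, limma adjusted p = 0.0304) and Smad6 (2.02, SE 0.36, 0.0201) also rose. Thus all 4 Id genes, 1 ligand and 1 inhibitory Smad were higher in the replicate 2 set. Smad7 had 1.15 (SE 0.49, limma adjusted p = 0.142), with 0.42 in VC+, 0.44 in VC- and 2.58 in D0. Bmp4 had -0.36 (SE 1.21, adjusted p = 0.837), with -3.01 in VC+, -1.33 in VC- and 3.26 in D0, so its direction in D0 was opposite to that in the differentiated cells. In all, 7 of the 8 were higher in replicate 2 in every group, against 32.5% of all genes.

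How many of these calls held depended on the group from which a library was left out. The remaining library of that group then adds nothing to the replicate term. The fitted term is therefore the same whichever library of the group was left out. Over all genes, 2971 were called with all libraries, 58 without VC- replicate 1 and 0 without VC- replicate 2, 754 and 731 without VC+ replicate 1 and 2, and 4945 and 5049 without D0 replicate 1 and 2. With either VC- library left out, none of the 6 was called, with limma adjusted p of 0.0557 and 0.0571 for Id4, while the fitted terms were 2.57 for Id1, 1.06 for Id2, 1.29 for Id3, 1.93 for Id4, 1.85 for Bmp7 and 1.98 for Smad6. The members' lost and gained calls thus went with the number called over all genes. Without either VC+ library the calls of Id2, Id3, Bmp7 and Smad6 were lost, and without either D0 library the 6 held and Bmp4 was called at -2.17 (limma adjusted p = 0.00492 and 0.00446). The microglia, fibroblast and oligodendrocyte lineage marker sums given above differed between the same replicate sets, and so did those of 9 endothelial markers (27.7 to 59.8 CPM in replicate 2, 6.05 to 8.42 CPM in replicate 1) and 5 ependymal markers (104 to 842 CPM in replicate 2, 32.2 to 42.3 CPM in replicate 1). Their part in the Id, Bmp7 and Smad6 values was not tested.

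**Figure D3:**
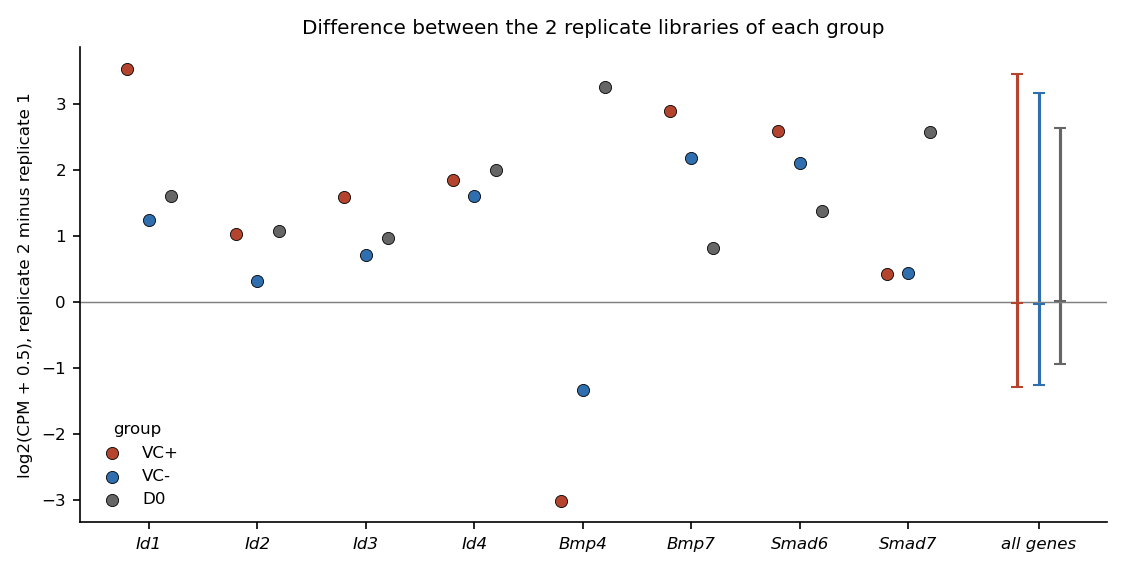
Log2 difference of replicate 2 minus replicate 1 within VC+, VC- and D0 for the 8 genes, beside the 5th, 50th and 95th percentiles over all genes tested. Id1 in VC+ lies at 3.54, past the 95th percentile of 3.46; Bmp4 lies at -3.01 in VC+ and -1.33 in VC-, past the 5th percentiles of -1.29 and -1.25, and at 3.26 in D0, past the 95th of 2.64.

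Expression patterns like those of the Id genes were sought among 9816 tested genes with a mean of at least 5 CPM, by the root mean square difference of log2(CPM + 0.5) centred on each gene's mean over the 6 libraries. Nearest to Id1 were Klf4 at 0.154, Phlda3 at 0.315 and Vim at 0.333. Klf4, a transcription factor of stem cells, had 1.24 and 17.3 CPM in VC+, 6.05 and 14.9 CPM in VC-, and 4.16 and 19.3 CPM in D0, with the same low library as Id1. Nearest to Id2 were Tmem192 at 0.121, Pkig at 0.128 and Slc48a1 at 0.130. Nearest to Id3 were Ppp1r15a at 0.144, Nat14 at 0.178 and Ubtd1 at 0.178. Nearest to Id4 were Pdlim4 at 0.131, Fry at 0.212 and Shank2 at 0.229, and Pdlim4 had 26.7 and 82.8 CPM in VC+, 26.2 and 65.7 CPM in VC-, and 6.31 and 28.3 CPM in D0. Among the 8 genes themselves, Id2 and Id3 were the closest pair of Id genes at 0.249, and Id3 held place 94 among the genes nearest to Id2. Of the other members Id1 was nearest to Smad6 at 0.550, which would take place 42, and lay at 0.749 from Id3 and 1.16 from Id4. Smad6 has a mean under 5 CPM and so is not among the ranked genes. Its replicate 1 values rest on 5 reads in VC+, 10 in VC- and 7 in D0. Bmp4 was at 2.79 from Id1, place 9767. All these values are over the same 6 libraries, which share the replicate difference.

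Of 16 other genes known as BMP targets, 14 were in the table and 12 were tested, and limma called none. For VC+ against D0, 5 of the 12 were higher and 3 lower in both replicates, against 28.6% and 29.0% of all genes. Without overlap 4 were higher, against 14.2%, and 1 was lower, against 13.2%, and the list median was -0.10. For VC- against D0, 5 were higher and 2 lower in both replicates, with a median of -0.14. For VC+ against VC-, 3 were higher and 3 lower in both replicates, none without overlap, with a median of 0.042. Zfp423, a zinc finger partner of BMP-activated Smads, had 63.0 and 93.0 CPM in VC+, 51.9 and 70.1 CPM in VC-, and 31.9 and 43.7 CPM in D0. It followed the order VC+, VC-, D0 in both replicates, with differences of 0.34 (SE 0.32) for VC+ against VC-, 0.68 (SE 0.32) for VC- against D0 and 1.03 (SE 0.32) for VC+ against D0 (limma, adjusted p = 1.000 in each). Klf10, an early response gene of TGF beta and BMP, had 18.3 and 32.4 CPM in VC+, 19.6 and 36.1 CPM in VC-, and 41.2 and 32.1 CPM in D0. Hey1, a bHLH repressor downstream of Notch and BMP that was chosen after its values were seen, had 12.2 and 22.8 CPM in VC+, 10.7 and 19.2 CPM in VC-, and 3.66 and 8.48 CPM in D0, both differentiated groups above D0. Atoh8, a bHLH gene also chosen after its values were seen, split between replicates in the way Id1 did, with 3.73 and 23.8 CPM in VC+, 12.2 and 19.0 CPM in VC-, and 10.7 and 20.4 CPM in D0.

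Of 13 listed bHLH factors that Id proteins bind or counter, 10 were in the table and tested, and limma called none. For VC+ against VC-, 8 were lower and 2 higher in both replicates and the median was -0.33, against 26.4% lower, 30.0% higher and a median of 0.018 for all genes. For VC+ against D0, 7 were lower and 1 higher in both, 5 of them lower without overlap (13.2% of all genes), and the median was -0.69. Olig1, an oligodendrocyte lineage factor, had 745 and 72.6 CPM in VC+, 1691 and 112 CPM in VC-, and 1358 and 303 CPM in D0. Olig2, its relative, had 485 and 55.8 CPM in VC+, 765 and 61.6 CPM in VC-, and 419 and 127 CPM in D0. Both were lower in replicate 2 in every group, unlike the Id genes. Tcf3, 1 of the E proteins in the list, was chosen after its values were seen. It had 101 and 92.1 CPM in VC+, 150 and 124 CPM in VC-, and 133 and 170 CPM in D0. Both VC+ libraries lay below the other 4. Of all genes tested, 7.82% were lower without overlap for VC+ against VC- and 13.2% for VC+ against D0. The other E proteins measured overlapped between VC+ and VC-.

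**Figure D4:**
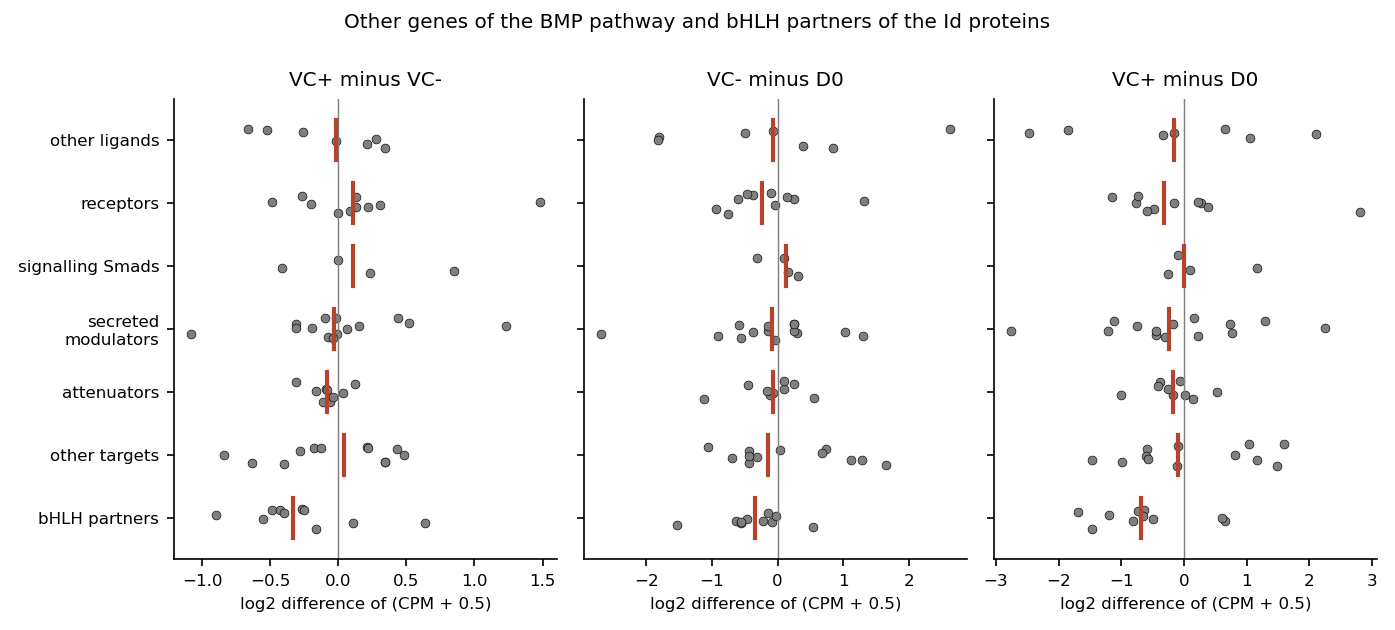
Log2 differences of the tested genes in 7 lists (points; red bars are list medians) for VC+ against VC-, VC- against D0 and VC+ against D0. The bHLH partners have medians of -0.33, -0.35 and -0.69, and the receptor farthest to the right in VC+ minus VC- is Bmpr1b at 1.48.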

How the data were processed

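Expression was measured by RNA-seq (TruSeq kit, per the labels' protocols) in 6 of 24 samples; the other 18 were not analysed here. The authors deposited 1 CPM value for each gene and library. The submitters' processing notes name STAR 2.5.1, edgeR 3.12.1, Bowtie2 2.1.0, CASAVA 1.7, HOMER 4.9.1, deepTools 2.4.2 and build rn5, with no role assigned to any; the counter, annotation, strand use and gene filter are not given in the sources used here. Within each library 100% of values were whole multiples of 1 step (relative tolerance 1e-06), so reads were recovered; listed genes held 60.2% to 67.7% of each library's scaling total.

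Differences were fitted with limma 3.58.1 (trend, two-sided, R 4.3.3) on log2(CPM + 0.5) with 3 groups in 1 fit, over genes that reached 1 CPM in 2 or more libraries. A gene was called at a Benjamini-Hochberg adjusted p under 0.05 over all 11823 genes. A pseudocount understates changes of low genes. edgeR 4.0.16 and DESeq2 1.42.0 were run on recovered reads. Other alternatives were pseudocounts of 0.1 and 2, no filter, a filter of 5 CPM, 2 rescalings, a replicate term and leaving out each library. With 2 libraries a group, an exact permutation test cannot pass the threshold, so none was used. The code was tested on simulated data.

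VC+ and VC- of the same replicate share a day label, which pairs them; their deviations from group means correlated at 0.914 across genes. Members and lists were chosen with earlier results of these data known. Named genes were the members, the 2 genes of highest mean CPM of each list and the 3 genes nearest to each Id gene; marker lists are given as sums. Bmp3, Nog, Bmper, Bmpr1b, Hey1, Atoh8, Tcf3, Inha, Ltbp1, Sox2 and Nes were named after their values were seen, and 1 further gene is not reported here.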

Additional observations from a re-analysis of the deposited data

How the results depend on the processing

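Over settings other than left-out libraries, 324 of 328 values (of 32 results) kept their direction and their side of the threshold; 3 passed the threshold and 1 changed sign. Id1 in VC- against D0 was -0.025 in DESeq2. DESeq2 called 6 genes for VC+ against VC-, 63 for VC- against D0 and 133 for VC+ against D0, against 0 in limma. With the replicate block it called 32 (0.263%), 455 (3.88%) and 768 (6.43%) in the same order, again against 0 in limma. The cause was not tested. For VC+ against VC- the replicate block changed no call of the 8 genes. For comparisons with D0 only the number is shared (deviations correlated at 0.730 for VC- with D0 and 0.688 for VC+ with D0). There DESeq2 with the replicate block called Id4 at 1.43 for VC- against D0 (adjusted p = 4.66e-04) and 1.67 for VC+ against D0 (6.25e-06), and Bmp7 at -2.41 for VC+ against D0 (6.23e-04), while limma with the block gave adjusted p of 0.185, 0.102 and 0.154 for the same values and called 0 genes in all 3 comparisons (404, 1550 and 1885 at an unadjusted p under 0.05). In limma with the block that unadjusted threshold was met by 13.1% of all genes for VC- against D0 and 15.9% for VC+ against D0. Of the 8 genes, Id2 (unadjusted p 0.0427), Id4 (6.03e-04), Bmp7 (0.0315) and Smad7 (0.0292) met it for VC- against D0. For VC+ against D0, Id4 (2.85e-04) and Bmp7 (0.00606) did, and for VC+ against VC- none did. Of the other pathway and partner genes named, DESeq2 with the replicate block also called Bmp3 (adjusted p = 6.15e-05), Bmp6 (0.00224), Bmpr1b (4.17e-06), Fstl1 (0.00743), Nedd4l (0.0253), Hey1 (0.00400), Zfp423 (0.00507), Olig1 (0.0152) and Ltbp1 (0.0275) for VC+ against D0, and Bmp3 (0.0151), Bmp6 (2.51e-04), Nedd4l (0.0131) and Hey1 (0.0316) for VC- against D0; limma with the block called none of them (0.112 to 0.280 and 0.199 to 0.282).

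For the comparisons between groups, leaving out 1 library assumes that the lone library of its group varies like the others, and lets the replicate difference enter. Of 192 such values 145 stayed, 20 lost and 2 gained a call, and 25 changed sign. For VC+ against VC- the ranges were -2.70 to 0.83 for Id1, -0.63 to 0.41 for Id2, -1.10 to 0.50 for Id3, -0.68 to 1.18 for Id4, -0.53 to 2.48 for Bmp4, -2.27 to 0.62 for Bmp7, -1.82 to 0.77 for Smad6 and -0.59 to -0.15 for Smad7. For VC- against D0 they were -0.75 to 0.86 for Id1, 0.12 to 1.20 for Id2, 0.005 to 0.98 for Id3, 0.41 to 2.42 for Id4, 1.05 to 4.31 for Bmp4, -2.59 to -0.41 for Bmp7, -0.42 to 1.69 for Smad6 and 0.55 to 3.13 for Smad7. For VC+ against D0 they were -2.64 to 0.89 for Id1, 0.012 to 1.09 for Id2, -0.61 to 0.99 for Id3, 0.66 to 2.67 for Id4, 2.03 to 5.29 for Bmp4, -3.77 to -0.87 for Bmp7, -1.19 to 1.40 for Smad6 and 0.18 to 2.76 for Smad7. The replicate difference of Bmp4 ranged from -2.17 to 0.97, and the number of genes called between replicates, 2971 over all libraries, from 0 (without VC- replicate 2) to 5049 (without D0 replicate 2). Depth limits Smad6 and, in D0 replicate 1, Bmp4 and Smad7.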

Other observations

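The TGF beta and activin arm of the family, which signals through Smad2 and Smad3, was measured by 13 listed genes, all tested, and limma called none in the 3 comparisons. Medians were 0.028 for VC+ against VC-, -0.21 for VC- against D0 and -0.37 for VC+ against D0. Tgfb2, a ligand, had 47.5 and 93.7 CPM in VC+, 24.3 and 116 CPM in VC-, and 40.2 and 366 CPM in D0. Ltbp3, which holds latent TGF beta in the matrix, had 301 and 250 CPM in VC+, 226 and 288 CPM in VC-, and 176 and 370 CPM in D0. Both had overlapping groups. Inha, the inhibin alpha subunit, was chosen after its values were seen and had 7.75 and 7.63 CPM in VC+, 2.44 and 4.73 CPM in VC-, and 3.78 and 4.66 CPM in D0. Both VC+ libraries lay above the other 4, with a difference of 1.06 (SE 0.48, limma adjusted p = 1.000) for VC+ against VC-. It was the 1 gene of the 13 that was higher without overlap for VC+ against VC-, against 8.15% of all genes tested. For VC+ against D0 it was again 1 of the 13, against 14.2%, while 3 of the 13 were lower without overlap, against 13.2%. Ltbp1, chosen in the same way, had 8.80 and 9.18 CPM in VC+, 8.72 and 13.2 CPM in VC-, and 13.6 and 84.9 CPM in D0, and was lowest in the differentiated cells (VC+ against D0 -1.87, SE 0.88; limma adjusted p = 1.000).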
